A study of Mus musculus with 8 samples.

Results

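Interferon response and antigen presentation genes were followed in the hippocampus of mice labelled as knockouts of Sumo2, the gene of a small modifier protein that cells attach to other proteins, and of their controls. The set was chosen by function, with earlier results of these data known. It named 39 genes: interferon-stimulated genes, the regulators that switch them on, and the machinery of MHC class I. Of these, 38 had a row under that name among the 17171 genes of the authors' deposited table, each with a single Ensembl identifier. The name Ifi27 had no row. The identifier that GENCODE M21 names Ifi27 was listed as Ifi27l1 and is described apart from the 38.

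RNA was sequenced from the hippocampus of C57BL/6 mice at 2 months of age. The 4 control samples had the genotype Sumo2 f/f, and the 4 samples labelled SUMO2-cKO had Sumo2 f/f with Emx1-Cre, so floxed Sumo2 alleles were common to all 8. Emx1-Cre is a recombinase driven from a gene of the dorsal forebrain lineage, which gives rise to excitatory neurons and many glial cells there but not to microglia or blood vessels. Nothing in the labels ties a sample to a separate animal, so p-values measure the spread between samples, which may be technical.

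Interferons are secreted when cells sense viral or misplaced nucleic acid. They bind receptors on the same and on neighbouring cells, and transcription factors then enter the nucleus and bind interferon-stimulated response elements in front of many genes. The products of those genes block viral replication, tag or cleave RNA, attract T cells and load peptides onto MHC class I for display. In the resting brain these genes are expressed at a low level, mostly in microglia, endothelial cells and astrocytes, and sumoylation is known from cultured immune cells as a restraint on interferon production.

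The core of the response element was searched in the promoters of the set as GAAANNGAAA, on either strand, in windows from RefSeq on build GRCm38.p6 that run from 250 bases before to 50 bases after the gene start. The windows of the called genes Cxcl10 and Parp12 are printed with those of Isg15 and Ifit1, textbook interferon-stimulated genes that were not called. Capitals mark matches to the core, and the sequence is that of the gene's own strand.
Cxcl10, chr5:92348840-92349139, strand -: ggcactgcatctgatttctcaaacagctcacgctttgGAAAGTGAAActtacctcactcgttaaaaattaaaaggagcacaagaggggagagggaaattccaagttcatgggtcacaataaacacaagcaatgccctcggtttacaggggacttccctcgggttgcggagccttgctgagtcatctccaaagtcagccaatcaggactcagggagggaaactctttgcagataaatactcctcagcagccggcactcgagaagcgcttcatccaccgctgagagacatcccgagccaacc
Parp12, chr6:39118300-39118599, strand -: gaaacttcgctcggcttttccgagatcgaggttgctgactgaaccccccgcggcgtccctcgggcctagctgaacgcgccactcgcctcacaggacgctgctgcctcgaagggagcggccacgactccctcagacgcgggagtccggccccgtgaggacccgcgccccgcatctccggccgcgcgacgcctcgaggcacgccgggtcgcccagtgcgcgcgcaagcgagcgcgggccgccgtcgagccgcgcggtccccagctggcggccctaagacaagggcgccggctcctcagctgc
Isg15, chr4:156200769-156201068, strand -: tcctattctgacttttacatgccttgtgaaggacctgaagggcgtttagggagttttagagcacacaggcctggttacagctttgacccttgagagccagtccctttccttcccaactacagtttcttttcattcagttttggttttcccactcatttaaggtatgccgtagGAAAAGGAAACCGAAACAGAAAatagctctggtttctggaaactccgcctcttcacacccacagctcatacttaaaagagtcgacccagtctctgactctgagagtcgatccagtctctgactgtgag
Ifit1, chr19:34640639-34640938, strand +: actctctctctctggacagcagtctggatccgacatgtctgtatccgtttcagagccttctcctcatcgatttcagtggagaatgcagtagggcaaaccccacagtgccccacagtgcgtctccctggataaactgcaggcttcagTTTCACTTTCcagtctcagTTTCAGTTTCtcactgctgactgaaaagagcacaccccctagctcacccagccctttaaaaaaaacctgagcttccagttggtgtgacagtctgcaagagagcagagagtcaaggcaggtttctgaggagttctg

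Cxcl10 had 1 match, at position -213 relative to the gene start. Parp12 had none in this window. Isg15 had 3 matches that overlap each other, so that its capitals form an unbroken run, and Ifit1 had 2 on the opposite strand, so that its capitals show the complement.

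All values are log2 fold changes, knockout relative to wild type, from the authors' deposited table, with a standard error (SE) taken as that value divided by the authors' Wald statistic. A gene is called at an adjusted p under 0.05 over all 17171 genes. Values per sample were not used, because the sample columns carry names that match no label, so the spread among samples is seen here only through the SE. The targeted gene goes against the labels, since the authors' deposited table gives Sumo2 0.42 (SE 0.252, Wald test, adjusted p = 0.761). Its interval, -0.07 to 0.92, leaves no room for a marked loss of Sumo2 RNA in the group labelled knockout. Which exons the floxed alleles remove is not in the labels, and reads inside and outside them were not tested apart. Its relative Sumo3 rose by 0.70 (SE 0.0934, Wald test, adjusted p = 1.15e-10) in the authors' deposited table. Directions are therefore those of the group labelled knockout.

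Cxcl10 and Parp12 rose, and no other member was called. The 2 calls are 5.26% of the 38 members, where 0.967% of all genes in the authors' deposited table were called higher. No member was called lower, against 0.53% of all genes. At an unadjusted p under 0.05, 8 members were higher, which is 21.1% of them, beside 4.2% of all genes. None was lower at that threshold, beside 4.17% of all genes. Positive values were held by 32 of the 38 members in the authors' deposited table, or 84.2%, against 49.9% of all genes. The median member stood at 0.14 and the median gene at -0.00 on the log2 scale. Without Cxcl10 and Parp12, the 36 other members had a median of 0.13. Of those 36, 83.3% were positive and 16.7% were higher at an unadjusted p under 0.05. These counts and medians describe the list and carry no test, since the members were chosen with earlier results known. In bulk tissue, more cells of a type and more RNA per cell cannot be told apart.

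**Figure D1:**
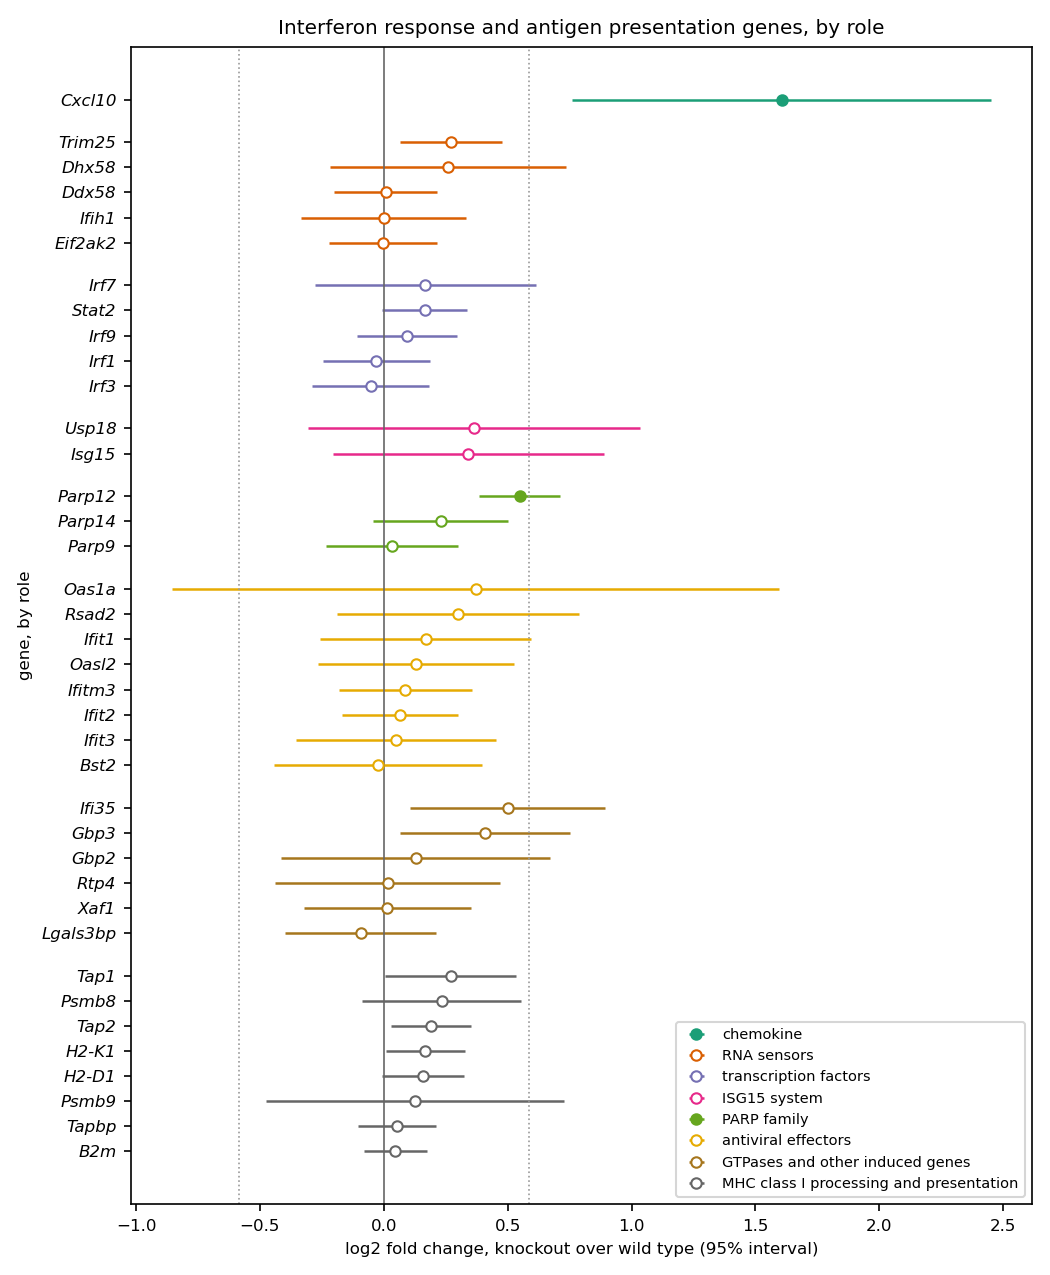
Log2 fold change (knockout relative to wild type) with its 95% interval for each of the 38 members, in rows grouped by role (colour). Filled points passed an adjusted p of 0.05, open points did not, and dotted lines mark a 1.5-fold change in each direction. Cxcl10, at 1.61, and Parp12, at 0.55, are the filled points, and 25 members have intervals wholly between the dotted lines.

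The members were measured with unequal precision. Their SE in the authors' deposited table ranged from 0.0650 for B2m to 0.626 for Oas1a around a median of 0.159, against 0.0940 for all genes. Only 7 members had an SE at or below that median: Stat2, Parp12, B2m, H2-K1, H2-D1, Tap2 and Tapbp. The smallest absolute Wald statistic among called genes was 3.37. By that limit an estimated log2 rise of 0.22 in B2m would have been called, whereas Isg15 needed 0.94, Usp18 1.15 and Oas1a 2.11. Cxcl10 needed 1.45, more than Isg15 or Usp18, and was called at an estimate of 1.61. For 25 members the 95% interval lay within a 1.5-fold change in either direction. The interval reached a 2-fold rise for Cxcl10, Usp18 and Oas1a and for no other member.

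**Figure D2:**
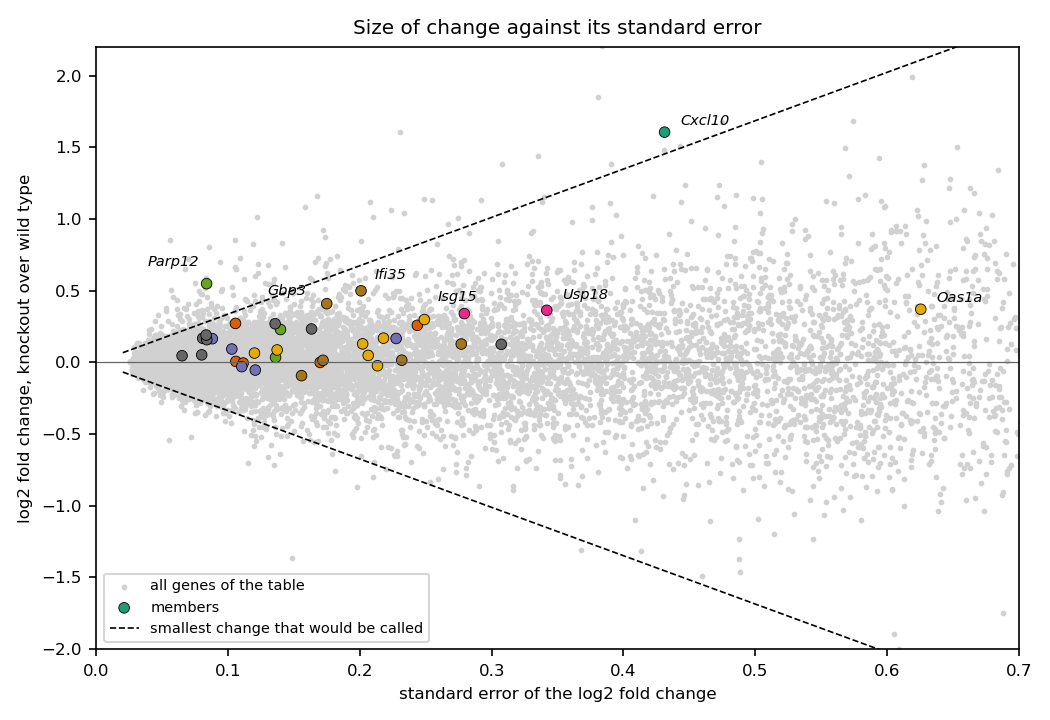
Log2 fold change (vertical) against its standard error (horizontal) for all genes (grey) and the 38 members (coloured by role as in the plot of members by role). Dashed lines mark 3.37 standard errors, the smallest statistic among called genes, and genes beyond the axes are not drawn. Cxcl10 and Parp12 lie outside the dashed lines. Isg15, Usp18, Cxcl10 and Oas1a all lie far to the right, where large changes are needed for a call.

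Cxcl10, a chemokine that draws CXCR3-bearing T cells and is made by astrocytes, microglia and endothelial cells on interferon or cytokine stimulation, had the largest value of the set. The authors' deposited table puts Cxcl10 (ENSMUSG00000034855, chromosome 5, 92346638 to 92348889, GRCm38) at 1.61 on the log2 scale (SE 0.431, Wald test, adjusted p = 0.0194). That is a 3.04-fold rise with a 95% interval of 1.69 to 5.47. Among the 166 genes called higher it ranked 7 by fold change but had the 4th largest SE. It ranked 173 of 17171 by p-value, and its call was lost with a Bonferroni adjustment. A limit of 0.25 on the SE takes Cxcl10 out before the adjustment, so that setting cannot test its call. None of its 50-base transcript windows occurs in a transcript of another gene, read along that transcript's own strand. Opposite strands were not compared. Of the 9 listed other interferon-induced chemokines and related genes, 3 had a row and none was called. Those were Cx3cl1 at 0.06 (SE 0.0412), Ccl12 at 0.32 (SE 0.527) and Cxcl16 at 0.10 (SE 0.282) in the authors' deposited table. The Ccl12 interval, from -0.72 to 1.35, overlapped that of Cxcl10. Those of Cx3cl1 and Cxcl16 ended at 0.14 and 0.65, below the lower end of Cxcl10 at 0.76. The differences between these genes were not tested.

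The PARP members belong to the ADP-ribosyltransferases, enzymes that attach ADP-ribose to proteins or RNA. Parp12, an enzyme of the Golgi and of stress granules, rose by 0.55 (SE 0.0836, Wald test, adjusted p = 3.58e-08) in the authors' deposited table. This is a 1.46-fold change, with an interval of 1.31 to 1.64, for ENSMUSG00000038507 (chromosome 6, 39086410 to 39118349, GRCm38). It ranked 25 of all genes by p-value and 62 of the 166 called higher by fold change, and its call was lost where a fold of at least 1.5 was also asked. Parp14 stood at 0.23 (SE 0.140, Wald test, adjusted p = 0.786) and Parp9 at 0.03 (SE 0.136, Wald test, adjusted p = 0.9996) in the authors' deposited table. The intervals of Parp12 (0.39 to 0.71) and Parp9 (-0.23 to 0.30) do not overlap, and that of Parp14 (-0.04 to 0.50) overlaps each of them. The difference between these genes was not tested. Dtx3l, which encodes the ubiquitin ligase partner of PARP9, was at 0.18 (SE 0.0918, Wald test, adjusted p = 0.611) in the authors' deposited table. None of 10 other PARP family genes was called, with 0 at an unadjusted p under 0.05 and a median of -0.01 in the authors' deposited table. The smallest p-values there were those of Parp8, at 0.10 (SE 0.0690, Wald test, adjusted p = 0.881), and Parp2, at 0.12 (SE 0.0883, Wald test, adjusted p = 0.891) in the authors' deposited table.

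The sensors of foreign RNA showed no call. Ddx58, which encodes RIG-I, stood at 0.01 (SE 0.106), Ifih1, which encodes MDA5, at -0.00 (SE 0.170) and Eif2ak2, the RNA-activated kinase PKR, at -0.00 (SE 0.111) in the authors' deposited table. Each of these intervals lay within a 1.5-fold change. Dhx58, the regulatory helicase LGP2, was at 0.26 (SE 0.244) in the authors' deposited table. Trim25, the ubiquitin ligase that activates RIG-I, was at 0.27 (SE 0.106, Wald test, adjusted p = 0.261) and had the smallest p-value of the group in the authors' deposited table. Of 19 other measured sensing genes, none was called, with 3 higher and 1 lower at an unadjusted p under 0.05. Among all genes 4.2% were higher and 4.17% lower at that threshold. Ifi203, an interferon-inducible relative of DNA sensors, was at 0.39 (SE 0.147, Wald test, adjusted p = 0.236), and Aim2, a DNA sensor of the inflammasome, at -0.48 (SE 0.195, Wald test, adjusted p = 0.326) in the authors' deposited table.

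None of the 5 transcription factors was called, and none reached an unadjusted p under 0.05. Stat2 stood at 0.17 (SE 0.0880, Wald test, adjusted p = 0.644) and its partner Irf9 at 0.09 (SE 0.103) in the authors' deposited table. Irf7, the factor that amplifies interferon production, was at 0.17 (SE 0.227) in the authors' deposited table. Irf3, the factor that starts it, was at -0.05 (SE 0.121), and Irf1, a target of interferon gamma, at -0.03 (SE 0.110) in the authors' deposited table. Among 9 measured ligand, receptor and kinase genes the median was 0.01 and none was called. The smallest p-values there were those of the receptor chains Ifnar2, at 0.11 (SE 0.0817, Wald test, adjusted p = 0.902), and Ifngr2, at -0.05 (SE 0.0519, Wald test, adjusted p = 0.9996) in the authors' deposited table. Among 9 other transcription factor genes none was called, 1 was lower at an unadjusted p under 0.05, and the median was -0.01. Irf2bp2, a corepressor partner of IRF2, was at -0.12 (SE 0.0561, Wald test, adjusted p = 0.443) and Irf2 itself at -0.07 (SE 0.0570) in the authors' deposited table.

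Isg15, a ubiquitin-like modifier, stood at 0.34 (SE 0.279, Wald test, adjusted p = 0.961) in the authors' deposited table. Usp18, the protease that removes it and also damps receptor signalling, was at 0.36 (SE 0.342, Wald test, adjusted p = 0.997) in the authors' deposited table. The intervals, -0.21 to 0.89 and -0.31 to 1.03, include no change and, for Usp18, a 2-fold rise. At this precision an estimated rise of less than 1.92-fold in Isg15 or 2.22-fold in Usp18 would not have been called.

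Of the 8 antiviral effectors, 7 had positive values, none was called and none reached an unadjusted p under 0.05. Their values in the authors' deposited table ranged from -0.02 for Bst2, which tethers virus particles to the cell surface, to 0.37 for Oas1a, an RNA-activated synthetase. Rsad2, which encodes viperin, was at 0.30 (SE 0.249) in the authors' deposited table. The RNA-binding Ifit1, Ifit2 and Ifit3, which lie near each other on chromosome 19, were at 0.17 (SE 0.218), 0.06 (SE 0.120) and 0.05 (SE 0.206) in the authors' deposited table. Ifitm3, which blocks viral fusion, was at 0.09 (SE 0.137), and Oasl2 at 0.13 (SE 0.202) in the authors' deposited table. Reads of some members cannot be assigned by sequence alone. Of the 50-base transcript windows of Oas1a 57.6% occur in other genes, mainly Oas1g, and of those of Ifit3 51.2% occur in Ifit3b. Oas1g and Ifit3b were not analysed here.

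Among the other induced genes, Ifi35 and Gbp3 had unadjusted p-values under 0.05 and were not called. Ifi35, a regulator of innate signalling, stood at 0.50 (SE 0.201, Wald test, adjusted p = 0.303) in the authors' deposited table, the largest value of any member that was not called. Gbp3, a guanylate-binding GTPase, was at 0.41 (SE 0.175, adjusted p = 0.379), while its neighbour Gbp2 was at 0.13 (SE 0.277) in the authors' deposited table. Rtp4 was at 0.02 (SE 0.232), Xaf1, which favours cell death, at 0.01 (SE 0.172), and Lgals3bp, a secreted glycoprotein, at -0.09 (SE 0.156) in the authors' deposited table. The row listed as Ifi27l1 stood at -0.09 (SE 0.107, Wald test, adjusted p = 0.9996) in the authors' deposited table.

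A further list of 63 interferon-stimulated genes outside the set was read in the same way. Of its 57 measured genes, 43 had a positive value, or 75.4% beside 49.9% of all genes, and the median was 0.14 in the authors' deposited table. In this list 1 gene was called, which is 1.75%, where 0.967% of all genes were called higher. The call was that of Ly6e, a lipid-anchored surface protein, which rose by 0.19 (SE 0.0553, 1.14-fold, Wald test, adjusted p = 0.04997) in the authors' deposited table. That call was lost with a Bonferroni adjustment. At an unadjusted p under 0.05, 5 were higher, or 8.77%, and none was lower, beside 4.2% and 4.17% of all genes. Zc3hav1, the zinc finger antiviral protein, had the next smallest p-value, at 0.22 (SE 0.0921, Wald test, adjusted p = 0.341) in the authors' deposited table. Mx1, a GTPase often used as an interferon marker, had a value of 0.65 with an SE of 0.591 in the authors' deposited table. Values of the 57 measured genes ran from -0.44 to 1.27.

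All 8 genes of MHC class I processing and presentation had positive values, and none was called. Class I molecules display peptides cut by the proteasome and carried into the endoplasmic reticulum by the TAP transporter. The heavy chain genes H2-K1 and H2-D1 stood at 0.17 (SE 0.0807, Wald test, adjusted p = 0.516) and 0.16 (SE 0.0838, Wald test, adjusted p = 0.635) in the authors' deposited table. Their light chain B2m was at 0.05 (SE 0.0650), with an interval of -0.08 to 0.17 in the authors' deposited table. The transporter subunits were at 0.27 (Tap1, SE 0.136, Wald test, adjusted p = 0.580) and 0.19 (Tap2, SE 0.0833, adjusted p = 0.409), and Tapbp, the tapasin that bridges TAP and class I, at 0.05 (SE 0.0799) in the authors' deposited table. H2-K1, Tap1 and Tap2 had unadjusted p-values under 0.05. H2-K1 and H2-D1 share 6.87% and 13.9% of their windows with other genes, in part with each other.

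The induced proteasome subunits Psmb8 and Psmb9 stood at 0.23 (SE 0.163, Wald test, adjusted p = 0.883) and 0.13 (SE 0.307, Wald test, adjusted p = 0.9996) in the authors' deposited table. Psmb10, the other induced subunit, was at -0.02 (SE 0.0916) in the authors' deposited table. Their constitutive counterparts Psmb5, Psmb6 and Psmb7 were at -0.05 (SE 0.0757), -0.01 (SE 0.0664) and -0.01 (SE 0.0584) in the authors' deposited table. The interval of Psmb8, from -0.09 to 0.55, overlaps those of the constitutive subunits. Of 18 other class I genes none was called and none reached an unadjusted p under 0.05, with a median of 0.04 and 12 positive. H2-Q6, a non-classical heavy chain, was at 0.59 (SE 0.391, Wald test, adjusted p = 0.851), and Psme1, a proteasome activator, at -0.10 (SE 0.0860, Wald test, adjusted p = 0.967) in the authors' deposited table. The 8 class II genes, which present antigen to CD4 T cells, were split 4 to 4 by sign with a median of -0.06 and no call. Ctss, the protease that prepares class II molecules for loading, was at -0.14 (SE 0.0848, adjusted p = 0.765), and H2-DMb1, a class II loading chaperone, at -0.44 (SE 0.277, Wald test, adjusted p = 0.814) in the authors' deposited table.

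**Figure D3:**
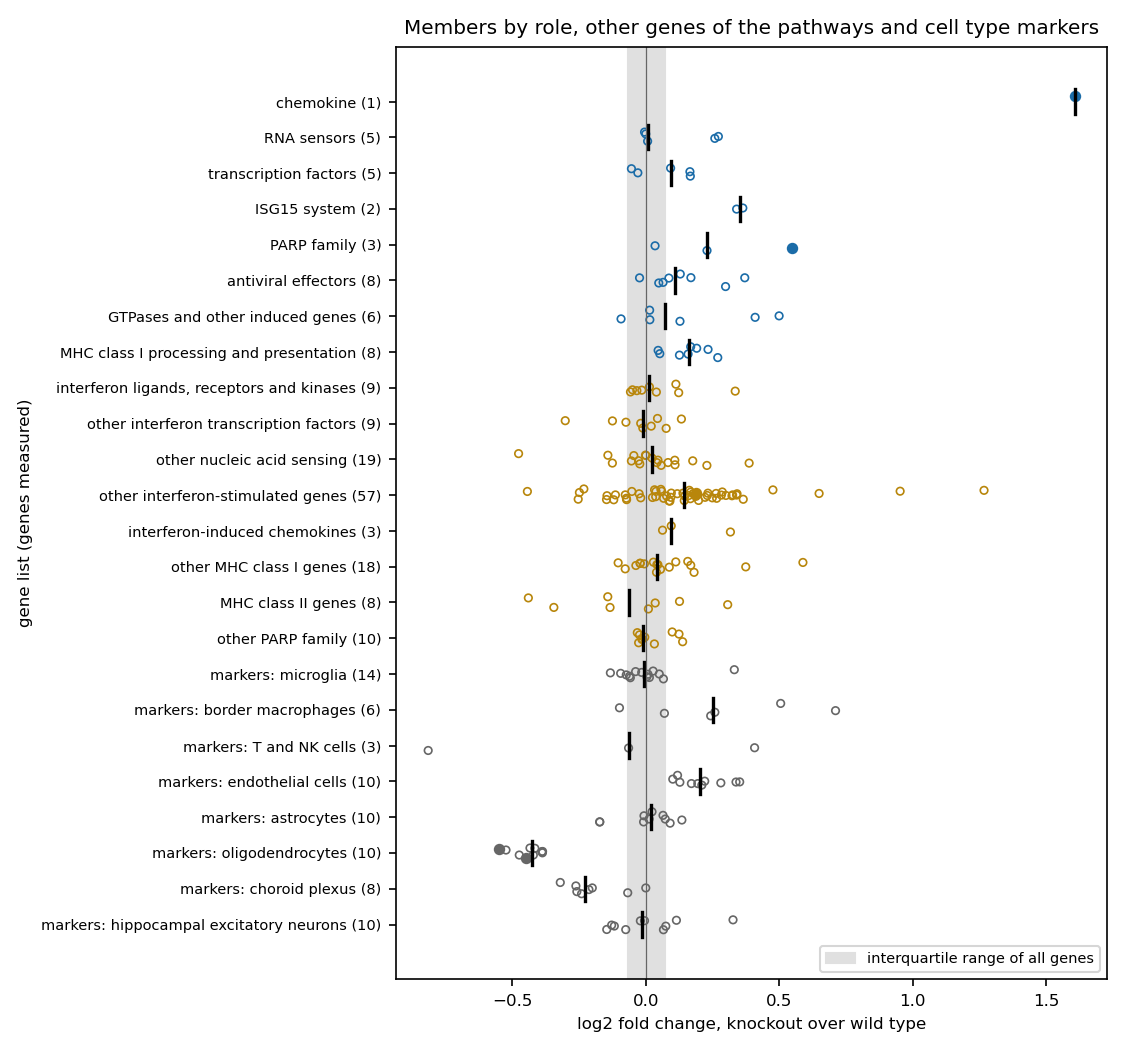
Log2 fold change of each measured gene (points, filled where called) by list, with the median as a black bar and the interquartile range of all genes as a grey band. Members by role are blue, other genes of the pathways ochre and cell type markers grey, with the number measured in brackets. Endothelial markers and other interferon-stimulated genes have medians of 0.20 and 0.14, and oligodendrocyte markers one of -0.43.

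The marker lists of cell types differed in direction. All 10 endothelial markers had positive values in the authors' deposited table, their median was 0.20 and none was called. At an unadjusted p under 0.05, 3 of them were higher, where 4.2% of all genes were higher and 4.17% lower. Border macrophage markers had a median of 0.25, with 5 of 6 positive, none called and 1 higher at that threshold. The 14 microglia markers were split 7 to 7 by sign with a median of -0.01, no call and 1 higher at that threshold. Astrocyte markers had a median of 0.02 over 10 genes, with no call, and 1 higher and 2 lower at that threshold. Oligodendrocyte markers were negative in 10 of 10 genes with a median of -0.43, and 9 of them were lower at an unadjusted p under 0.05. Of these, Ermn, at -0.55, and Mog, at -0.45, were called lower (Wald test, adjusted p = 0.00122 and 0.0385) in the authors' deposited table. Among all genes 0.53% were called lower. Choroid plexus markers were negative in 8 of 8 with a median of -0.23, no call and none at an unadjusted p under 0.05. The 10 markers of hippocampal excitatory neurons had a row each, with a median of -0.01 and no call. Of these 10, 2 were higher and 1 lower at an unadjusted p under 0.05. Of 12 T and NK cell markers 3 had a row, between -0.81 and 0.41, and none was called or reached that threshold. Their SE ran from 0.186 to 0.914, so these rows say little of such cells. Whether the cell makeup of the samples had a part in the values of the members was not tested.

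RefSeq windows were found for 32 of the 38 members and for 11657 of the genes of the authors' deposited table. A match was held by 15 of the 32 members, or 46.9%, and by 427 of the 11657 genes, or 3.66%. Among all 32851 windows of the RefSeq table the share was 3.44%. The 15 members with a match had a median of 0.13 in the authors' deposited table and the 17 without one also 0.13. Of the 427 genes with a match 1 was called higher, Cxcl10, which is 0.234%, against 0.855% of the 11230 genes without. The median of the 427 genes was 0.01. A match is a description of letters and not of binding. The windows of Psmb9 and Tap1 share 275 bases and hold none of the motifs searched. The GAS element, searched as TTCNNNGAA, was in 8 of the 32 members, or 25% (8.25% of genes). The string GGGANTTTCC, a narrow form of the NF-kB element, was in B2m alone (0.54% of genes). The Cxcl10 window held neither string of letters, which says nothing of the factors themselves. Looser forms were not searched, and near matches such as gggaaattcc and gggacttccc in the Cxcl10 window were not counted. The search therefore does not show which windows lack an NF-kB element.

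**Figure D4:**
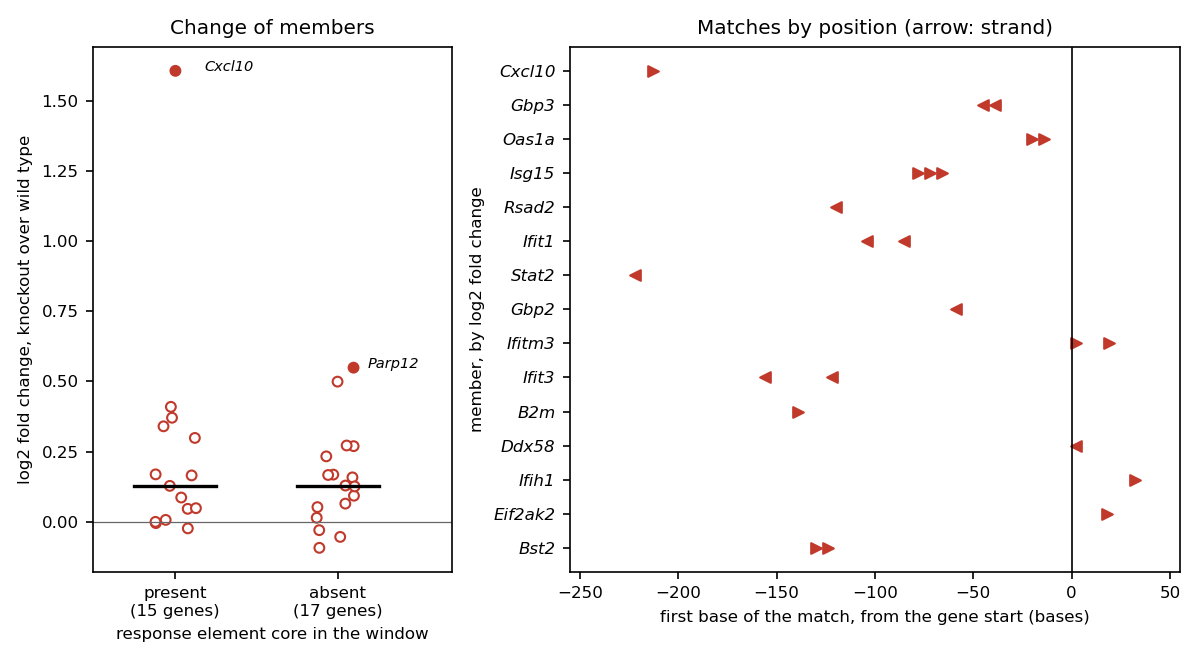
Left, log2 fold change of the 32 members with a promoter window, by whether the window holds GAAANNGAAA, with the median as a bar and called genes filled. Right, the position of each match in bases from the gene start, with members ordered by log2 fold change from top to bottom and arrows showing the strand. The medians are 0.13 on either side, and matches occur both in members near the top, such as Cxcl10, and in members near 0, such as Ifih1 and Bst2.

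No other gene within 500 kb of Cxcl10 or Parp12 was called, where 0.967% of all genes were called higher and 0.53% lower. Of the 16 other tested genes around Cxcl10, none reached an unadjusted p under 0.05, and their median was -0.03 in the authors' deposited table. Art3, which overlaps Cxcl10 on the opposite strand, stood at 0.05 (SE 0.197) in the authors' deposited table. The search for shared windows did not cover such an overlap, and whether the counting used strand was not stated. Around Parp12, 1 of 16 reached an unadjusted p under 0.05, and the median was 0.04. At that threshold 4.2% of all genes were higher and 4.17% lower. Rab19, which encodes a small GTPase, had a larger value than Parp12 and a wide error, at 1.52 (SE 0.970) in the authors' deposited table. The noncoding 4930599N23Rik starts 123 bases from the start of Parp12 on the opposite strand. It was at 0.61 (SE 0.330, Wald test, adjusted p = 0.654) in the authors' deposited table, with an interval of -0.03 to 1.26 that includes the value of Parp12.

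The class I members other than B2m lie within 1.35 Mb of chromosome 17 (33915899 to 35267499, GRCm38). Of the 77 other tested genes in that span, 45 had a positive value, the median was 0.01 and none was called in the authors' deposited table. Over all genes 49.9% had a positive value, 0.967% were called higher and 0.53% lower. The 7 members in the span had a median of 0.17. Psmb9, Tap1, Psmb8 and Tap2 follow each other in this order, and the annotated spans of Psmb9 and Tap1 overlap by 212 bases on opposite strands. Whether the counting used strand was not stated in the labels or file headers, so reads in that overlap are of uncertain origin.

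**Figure D5:**
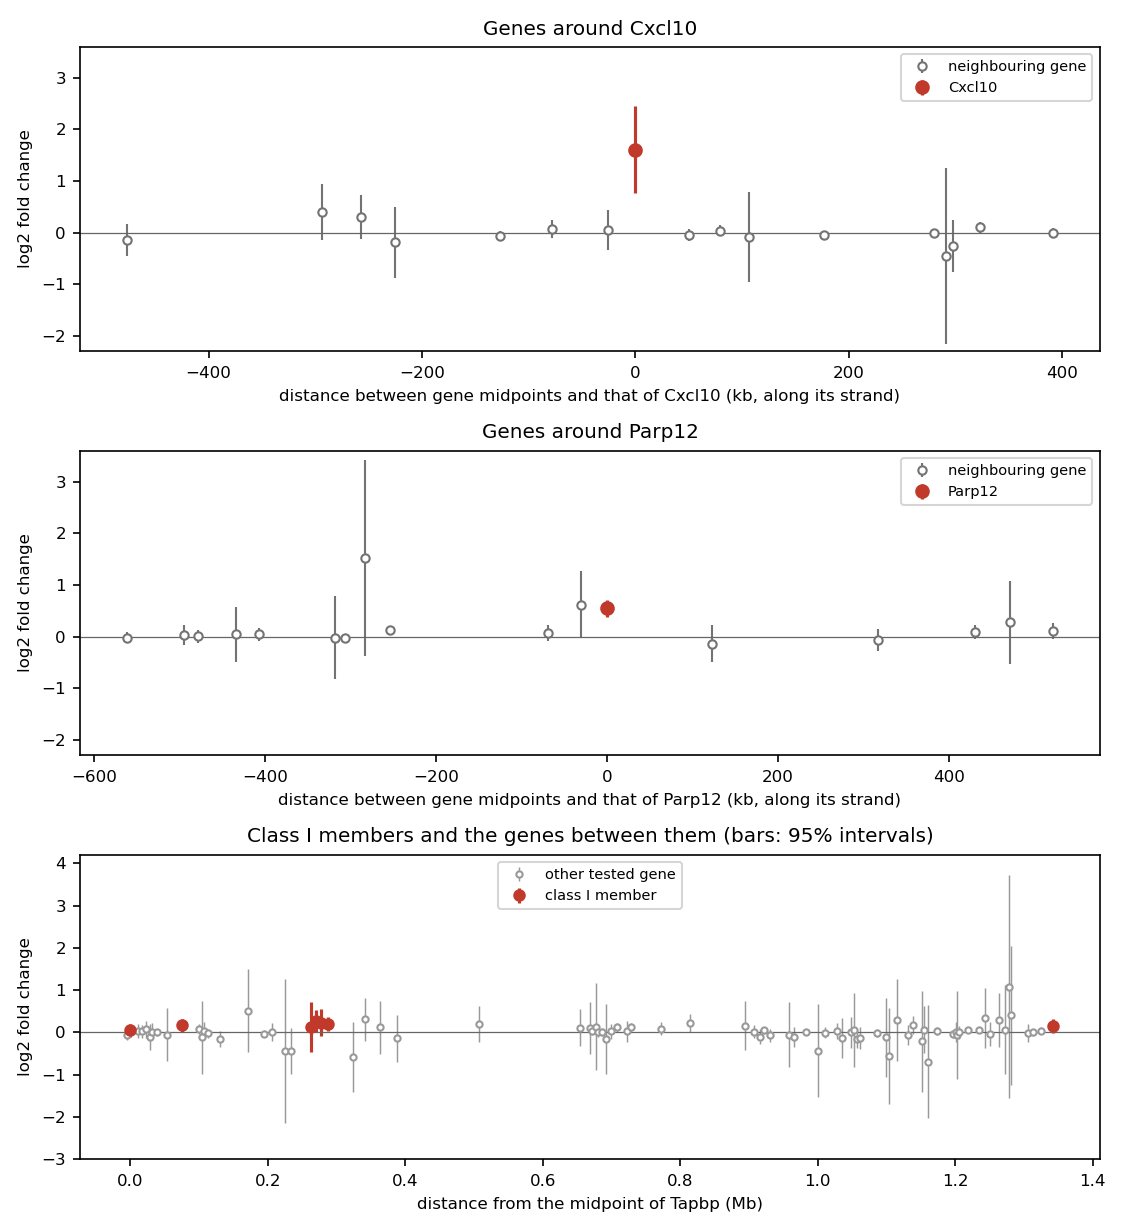
Log2 fold change with 95% interval of tested genes around Cxcl10 (top) and Parp12 (middle), by distance between gene midpoints, and across the span of class I genes (bottom), by distance from Tapbp. Red marks the members and grey the other genes. The neighbours of Cxcl10 range from -0.46 to 0.40 with a median of -0.03, and those of Parp12 from -0.14 to 1.52 with a median of 0.04.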

How the data were processed

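RNA-seq of 8 hippocampus samples, 4 per genotype, used a stranded mRNA kit per the labels. Per the submitters' processing notes, the tools were STAR, HTSeq, DESeq2, cutadapt and Trim Galore, with no role stated. Tool versions, genome build, annotation and strand setting: not given in the sources used here. Per the file headers, the authors deposited for each of 17171 genes a log2 fold change (knockout relative to wild type), a Wald statistic (a score), and a p-value with its adjusted form. The 8 sample columns have names that match no sample label and were used in no step, so depth per library, values per sample and the planned fit of sample values were not analysed here.

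From the deposited values, SE and normal 95% intervals were computed. The deposited p-values and adjusted p-values were recomputed to within 9.58e-15, and the adjustment was tested on simulated data. Coordinates are from GENCODE M21 (GRCm38), which holds 16955 of the identifiers. Shared windows are 50-base stretches of a member's coding transcripts found exactly in transcripts of other genes, each read along its own strand only. Members and lists were chosen with earlier results of these data known. Named genes are all members, Sumo2, Sumo3, and of each other list the called genes and the 2 with the smallest p-value. Dtx3l, Mx1, Cxcl16, Psmb5, Psmb6, Psmb7, Psmb10, Ifi27l1, Art3, Rab19 and 4930599N23Rik fall outside that rule: they were chosen after their values were seen. Of the marker lists, 14 genes that the rule names were not called and are given by list. Their adjusted p-values are 0.130 or more. Python 3.11.15, pandas 2.3.3, scipy 1.17.1 and matplotlib 3.10.9 were used. Alternatives covered thresholds, the genes adjusted over and a limit on the SE.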

Additional observations from a re-analysis of the deposited data

How the results depend on the processing

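The 2 calls of members remained with an adjusted p under 0.1 and with adjustment over coding genes alone. A fold of at least 1.5 left 1, Cxcl10, since Parp12 stands at 1.46-fold. Bonferroni left 1, Parp12 (Wald test, adjusted p = 8.94e-07), and an SE of at most 0.25 left 1, Parp12. Cxcl10, with a larger SE, was taken out before that adjustment, so its call was not tested there. The median of the members, 0.14, stayed between 0.11 and 0.14 for the 32 members whose SE is 0.25 or less, without Cxcl10, and as a mean weighted by the inverse squared SE. Of the 133 other genes of the pathways, the 1 call (Ly6e) became 0 with the fold and 0 with Bonferroni. Of the 71 markers, the 2 calls became 0 with the fold and 0 with Bonferroni. At an unadjusted p under 0.05 the authors' Wald test gives 8 higher and 2 lower of the former, and 8 higher and 12 lower of the latter. Among all genes the shares are 4.2% higher and 4.17% lower. Every setting was planned. No paired analysis was possible because a deposited comparison has no replicates to pair. Other normalizations and filters and leaving out each replicate need values per sample and were not run. The SE sets what could be called, as given for Isg15, Usp18 and Oas1a, and the parts of depth and of the spread between samples in it were not tested.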
